A study of Esox lucius with 13 samples.

Results

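Renin and cholesterol side-chain cleavage enzyme are markers of a pair of endocrine tissues that in fish lie close together in the kidney. Renin is the protease that cuts angiotensinogen and so starts the angiotensin cascade, which controls blood pressure and salt balance, and it is known from the juxtaglomerular cells of the kidney. Cholesterol side-chain cleavage enzyme sits in mitochondria and turns cholesterol into pregnenolone, the first step in the synthesis of all steroid hormones. In teleosts the counterpart of the adrenal gland is spread through the head kidney, where steroid-making interrenal cells and catecholamine-making chromaffin cells lie within blood-forming tissue, while the nephrons fill the kidney behind it. The gonads also make steroids from cholesterol.

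These transcripts are 2 of the 38696 in the reference transcriptome of northern pike, *Esox lucius*, and were chosen by their protein names in the annotation of the study and by their known pattern over tissues, so that their levels below are a description. RNA was sequenced from kidney, head kidney, testis, gut, stomach, liver, spleen, brain, eye, nose, gill, muscle and heart of 1 juvenile male wild-type fish, with 1 library per tissue. The fish was caught in the wild, and its gut sample was described as hind gut by the study, which heads the stomach sample as pyloric caecum in 1 place. With 1 animal and no replicates, no test between tissues was possible, and a juvenile testis need not stand for a mature one. The libraries held a median of 19038265 fragments, the smallest being brain (17240414) and the largest liver (22300517). Values are given as fragments, the read pairs counted for a transcript, and as FPKM, fragments scaled to transcript length and to the library total. Intervals are exact 95% intervals and cover counting error only. In whole tissue, fewer cells of a type and less RNA per cell cannot be told apart.

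Among the names at hand, which come from shortened copies of the annotation and cover 925 of the transcripts, renin was carried by 1 transcript, of 1936 bases. Further transcripts of either gene without a name here would not be counted. It had 905 fragments in kidney, 478 in gut, 18 in head kidney, 2 in liver and 1 each in brain and eye. Gill, heart, muscle, nose, stomach, spleen and testis had none. Renin was thus read in 6 of the 13 libraries, and 22 of its 1405 fragments lay outside kidney and gut.

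The level of renin was 23.7 FPKM in kidney (22.1 to 25.3), 13.1 FPKM in gut (11.9 to 14.3) and 0.495 FPKM in head kidney (0.293 to 0.783). Kidney held 63.4% of the FPKM summed over the 13 tissues and gut 35.0%, which left 1.60% for the other 11. Among the transcripts with at least 1 fragment in a library, renin ranked 2333 of 29365 in kidney, 3030 of 27172 in gut and 17709 of 29023 in head kidney. It was therefore an abundant transcript in kidney and gut, and in head kidney only 39.0% of the transcripts that were read had a lower FPKM.

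Among the same names, "Cholesterol side-chain cleavage enzyme, mitochondrial" was carried by 1 transcript, of 1855 bases. It had 1293 fragments in head kidney, 38 in brain, 18 in gut, 13 in testis, 2 in nose and 1 each in spleen, kidney and liver. Eye, gill, heart, muscle and stomach had none. It was read in 8 libraries, but only 74 of its 1367 fragments came from outside head kidney.

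The level of side-chain cleavage enzyme was 37.1 FPKM in head kidney (35.1 to 39.2), 1.19 FPKM in brain (0.841 to 1.63), 0.514 FPKM in gut (0.305 to 0.813) and 0.365 FPKM in testis (0.195 to 0.625). Kidney, with a single fragment, had 0.027 FPKM. Head kidney held 94.4% of the summed FPKM, and 97.4% lay in head kidney and brain together. The enzyme ranked 1383 of 29023 transcripts read in head kidney, above 95.2% of them, but 21310 of 33637 in brain and 16602 of 24692 in testis. On the FPKM scale the highest level of the enzyme, in head kidney, was above the highest level of renin, in kidney.

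**Figure D1:**
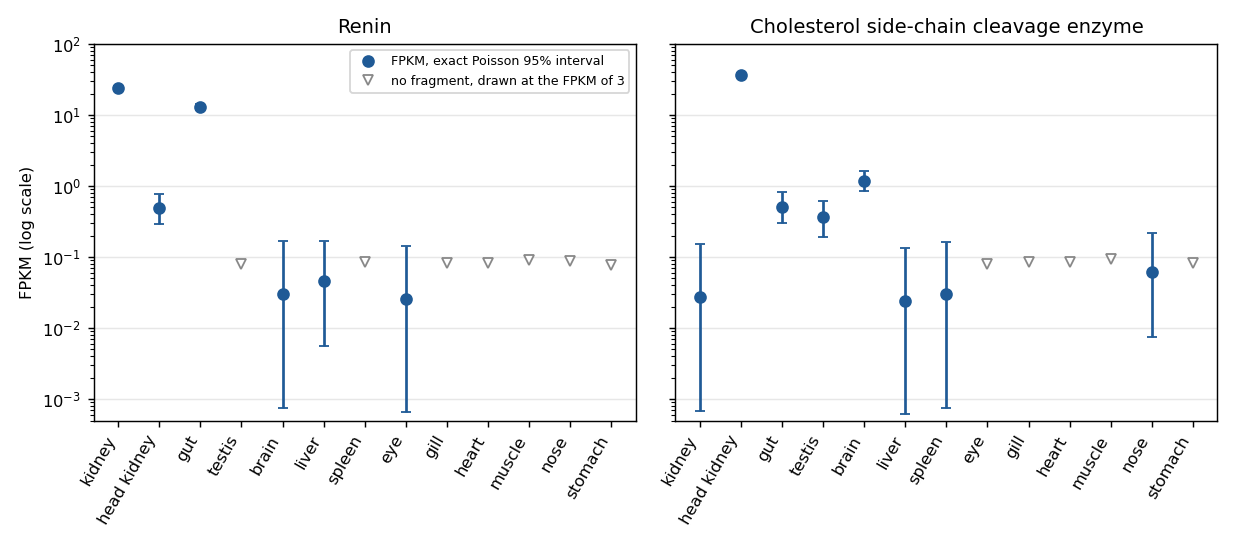
FPKM of renin (left) and cholesterol side-chain cleavage enzyme (right) in the 13 tissue libraries, on a log axis. Filled points show the FPKM with exact Poisson 95% intervals, and open triangles mark libraries with no fragment, drawn at the FPKM that 3 fragments would give. Renin stands high in kidney (23.7) and gut (13.1), and the enzyme in head kidney alone (37.1).

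The study counted a transcript as specialized in a tissue when its FPKM lay more than 3 SD above its mean over the tissues. Side-chain cleavage enzyme had a score of 3.33 SD in head kidney, where the highest score that 13 values allow is also 3.33. The score of renin in kidney was 2.88 SD, below the limit, and without gut it was 3.17, where 12 values allow at most 3.18. Of all 38696 transcripts, 0.873% passed the limit in head kidney and 1.05% in kidney. The enzyme was chosen for its pattern, so these shares are given for scale.

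Kidney and head kidney showed opposite levels of these genes. Renin was 47.8-fold higher in kidney than in head kidney (30.1 to 81.0). Side-chain cleavage enzyme was 1361-fold higher in head kidney than in kidney, but this ratio rests on the single fragment in kidney and its interval runs from 244 to 53784. Both ratios lay far outside counting error, and the enzyme's was the less precise.

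The background of such differences was uneven between the 2 directions. Of 20904 transcripts with at least 10 fragments in 1 of the 2 libraries, 5.89% were at least 10-fold higher in kidney than in head kidney, and 1.81% reached the ratio of renin. Fewer than 3 fragments were set to 3, so some transcripts had too few fragments to be 10-fold higher. They stayed in the total, here and in the 10-fold counts below, and lower the shares. In the other direction 1.00% were at least 10-fold higher in head kidney than in kidney. With fewer than 3 fragments set to 3, the ratio of the enzyme was 454. It was reached by 0.0335%, or 7 transcripts, the enzyme included. Transcripts with few fragments in head kidney could not reach 454 even with none in kidney, so this count depends on abundance as well. A 10-fold excess in head kidney was thus the rarer event in these libraries. The enzyme was chosen for its pattern, so its place among them is a description.

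**Figure D2:**
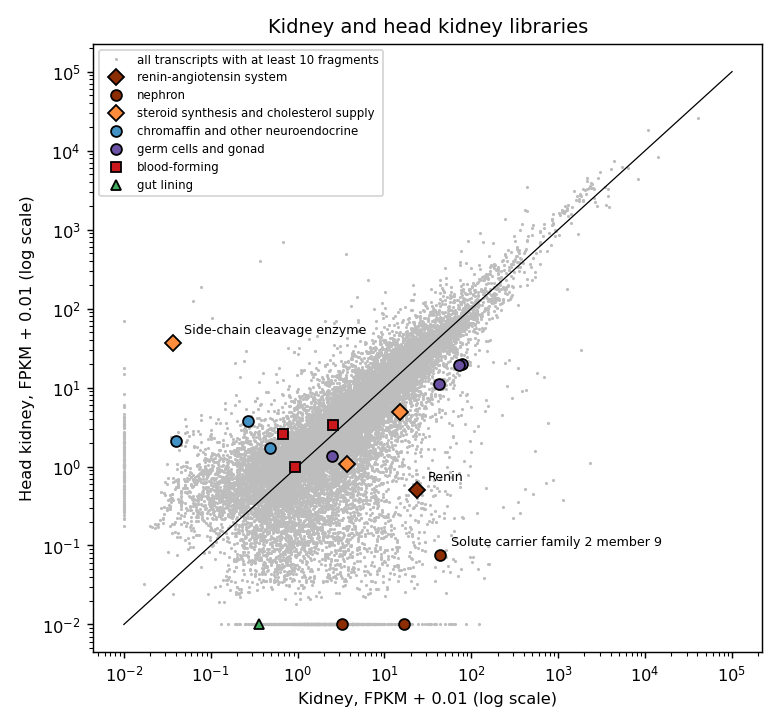
Level in head kidney against level in kidney, each as FPKM + 0.01 on a log axis, for transcripts with at least 10 fragments in at least 1 of the 2 libraries (grey) and for named genes grouped by list (coloured). The line marks equal levels. Side-chain cleavage enzyme lies far above the line, and renin and the nephron transcripts lie below it.

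Gut was the second tissue of renin. The ratio of kidney to gut was 1.81 (1.62 to 2.02), beyond counting error but small beside the ratios to the other tissues, and 45.3% of 21320 transcripts had a ratio at least as large, while 7.10% were at least 10-fold higher in kidney than in gut. The level in gut was 26.4-fold higher than in head kidney (16.5 to 45.0). When the 100 most abundant transcripts of each library were left out of the totals, all kidney to gut ratios moved by -0.31 on the log2 scale, and that of renin became 1.45.

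Among transcripts highest in kidney no tissue took second place for most, and gut did so for 9.9%. Of the 24212 transcripts with at least 100 fragments over the 13 libraries, 909 were highest in kidney, and the next tissue was head kidney for 175, brain for 168, testis for 116 and gut for 90. In 137 of the 909, or 15.1%, renin included, the level in gut was at least as large a share of that in kidney as for renin. As large a share in kidney and gut together, with more than 10% in each, was held by 17 transcripts, or 0.0702% of the 24212, renin included. The limit is the value of renin, which was chosen for its pattern, so the count is a description.

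The 3 transcripts of the nephron list with at least 100 fragments did not share the high level of renin in gut. Solute carrier family 2 member 9, which carries urate across cell membranes, had 1413 fragments in kidney and none in gut. Forkhead box protein I1, which directs the formation of ionocytes, had 544 fragments in kidney and 23 in gut, and was highest in gill with 1361. Low-density lipoprotein receptor-related protein 2, or megalin, an endocytic receptor of the proximal tubule, had 59 fragments in kidney and 1 in gut. It was not confined to kidney, which held 42.0% of its summed FPKM, and had 36 fragments in eye, 22 in brain and 13 in nose.

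In head kidney these nephron transcripts were at 2, 0 and 0 fragments, against 18 fragments of renin. The ratio of kidney to head kidney was 671 (186 to 5549) for solute carrier family 2 member 9 and 47.8 for renin. The summed level of the 8 nephron transcripts that were matched was 65.8 FPKM in kidney, 0.224 FPKM in head kidney and 1.27 FPKM in gut. In the other direction, angiopoietin-related protein 7, the only matched entry of the list for gut, had 2329 fragments in gut, 15 in kidney and none in head kidney. It does not stand for the gut lining, for which no marker was matched. The 3 nephron transcripts named above thus had 0, 23 and 1 fragments in gut, where renin had 478, and the part of nephron RNA in the 18 fragments of renin in head kidney was not tested.

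The level of renin outside kidney was also set beside 24 other transcripts with at least 500 fragments in kidney and at least 90% of their summed FPKM there. In head kidney they had a median of 0.0850% and at most 0.474% of their kidney level, while renin had 2.09%. In gut they had a median of 0% and at most 3.20%, and renin had 55.3%. These transcripts were picked for a low level elsewhere, so the comparison is a description, and a share of renin as high as that in gut could not occur among them. In brain and liver renin was lower, at 0.127% and 0.194% of its kidney level, and 14 and 10 of the 24 were at or above it.

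**Figure D3:**
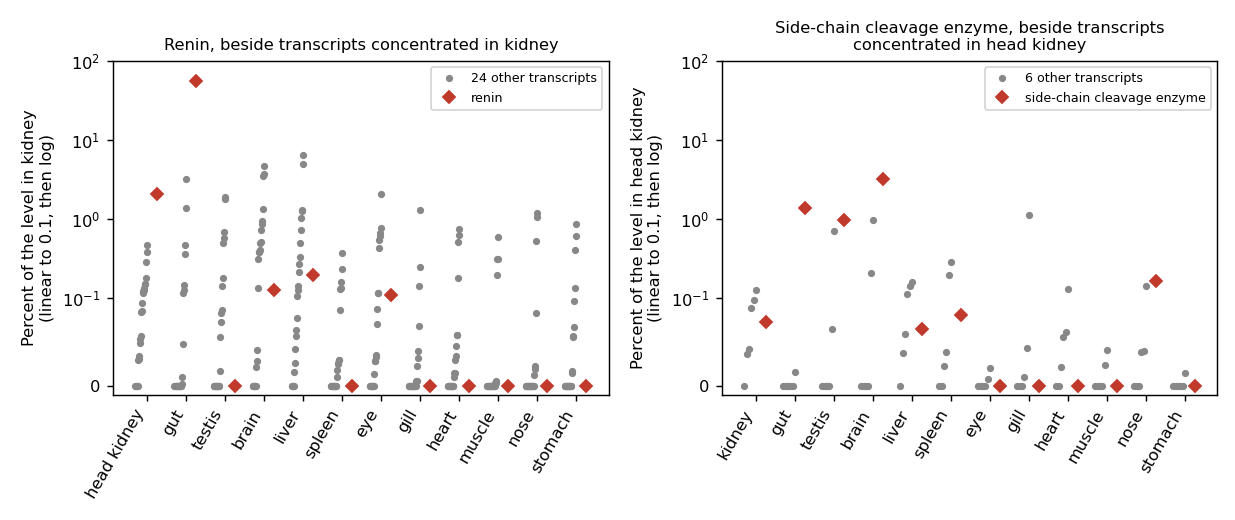
Level in each other tissue as a percent of the level in kidney for renin and 24 other transcripts concentrated in kidney (left), and of the level in head kidney for side-chain cleavage enzyme and 6 other transcripts concentrated in head kidney (right). The axis is linear up to 0.1 and logarithmic above it. Renin stands above all 24 in gut (55.3%) and head kidney (2.09%), and the enzyme above all 6 in brain (3.20%) and gut (1.38%), while its values in testis (0.983%) and nose rest on 13 and 2 fragments. The other transcripts were picked for a low level elsewhere, so none of the 24 could reach the share of renin in gut.

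Testis and head kidney, both tissues in which steroids are made from cholesterol, differed widely in side-chain cleavage enzyme. The 1293 fragments in head kidney, against 13 in testis, gave a ratio of 102 (59.2 to 191). At least 10-fold higher levels in head kidney than in testis were common among all transcripts, at 14.8% of 21057, and 2.34% reached the ratio of the enzyme. The testis of this fish had 13.4-fold more than kidney (2.01 to 569), with 1 fragment in kidney. It did not differ from gut beyond counting error, as the ratio of gut to testis was 1.41 (0.652 to 3.13).

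Renin had no fragment in testis, where 3 fragments would be 0.0808 FPKM. Its level in kidney was 293-fold higher when testis was set to a floor of 3 fragments, and the exact interval of the ratio starts at 238. A 10-fold or larger excess of kidney over testis was seen in 14.6% of 21080 transcripts, and 0.555% reached the ratio of renin. Renin was thus not detectable in testis at this depth, and the enzyme was detected there at a low level.

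Transcripts of the germ cell and gonad list were highest in testis, and some of them were also read in kidney. The list includes genes of cell division, which are not particular to germ cells. G2/mitotic-specific cyclin-B2, a regulator of mitosis, had 1651 FPKM in testis, 78.5 FPKM in kidney and 19.7 FPKM in head kidney. Gonadal histone H2A had 1375 FPKM in testis, 42.5 FPKM in kidney and 11.2 FPKM in head kidney. Securin, which takes part in cell division, had 933 FPKM in testis and 72.0 FPKM in kidney. Cyclin-B2 and securin were also read in gut, at 7.85 and 7.79 FPKM, and in nose, at 6.51 and 5.91 FPKM. All 4 germ cell or gonad transcripts with at least 100 fragments were highest in testis, as were 22.2% of the 24212 transcripts with as many, and those named here, with the exception of SOX-8 (1.87-fold), were 3.75-fold to 3.99-fold higher in kidney than in head kidney.

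The meiotic transcripts had few fragments. Testis-expressed sequence 12 protein, which helps to hold paired chromosomes together, had 46 fragments in testis and none in the other 12 libraries. Synaptonemal complex central element protein 3 had 52 fragments in testis, 7 in kidney, or 10.98% of its summed FPKM, and none in head kidney. The part of germ cell RNA in the levels of kidney was not tested. Renin has no fragment in testis and side-chain cleavage enzyme has 1 in kidney, against 13 in testis.

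Brain was the second tissue of side-chain cleavage enzyme. The 38 fragments there gave 1.19 FPKM, 3.25-fold above testis (1.69 to 6.65) and 2.31-fold above gut (1.29 to 4.30), both beyond counting error. Head kidney was 31.2-fold above brain (22.6 to 44.4), a ratio that 1.63% of 26052 transcripts reached, while 4.77% were at least 10-fold higher in head kidney. Brain was the next tissue for only 63 of the 1286 transcripts highest in head kidney, while spleen was for 559 and kidney for 305.

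Few transcripts were as concentrated in head kidney as this enzyme. Of the 24212 transcripts with at least 100 fragments, 134 had at least 50% of their summed FPKM in head kidney, and 8 had at least the share of the enzyme, itself included. Among 6 others with at least 500 fragments and at least 90% in head kidney, the highest level in brain was 0.962% of that in head kidney, against 3.20% for the enzyme. In gut it was 0.0154%, against 1.38%, and in testis 0.708%, against 0.983% from 13 fragments. These 6 were likewise picked for a low level elsewhere. In kidney the enzyme, at 0.0727%, lay within the range of these transcripts, of which 3 were above it and the highest was 0.125%.

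Beyond the first step, the list of steroid synthesis and cholesterol supply had 10 entries, of which 3 were matched to a transcript. Sterol-4-alpha-carboxylate 3-dehydrogenase, which acts in the synthesis of cholesterol itself, had 168 FPKM in testis, 14.9 FPKM in kidney and 4.84 FPKM in head kidney. Phosphatidylcholine-sterol acyltransferase, which esterifies cholesterol on lipoproteins, was highest in liver with 349 fragments. It had 153 in kidney, 147 in gut, 42 in head kidney and 2 in testis. The dehydrogenase and the acyltransferase were higher in kidney than in head kidney, 3.09-fold (2.59 to 3.69) and 3.46-fold (2.45 to 4.99). Side-chain cleavage enzyme went the other way. The list was thus highest in 3 different tissues, and only side-chain cleavage enzyme was highest in head kidney.

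Side-chain cleavage enzyme and phosphatidylcholine-sterol acyltransferase were higher in head kidney than in testis, whereas sterol-4-alpha-carboxylate 3-dehydrogenase was lower in head kidney, with 170 fragments, against 6032 in testis. The other entries of the list, among them steroidogenic acute regulatory protein and cytochrome P450 11B, and the other entries for the renin-angiotensin system were not analysed here. Renin was the only one of 3 entries for its system that was matched.

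**Figure D4:**
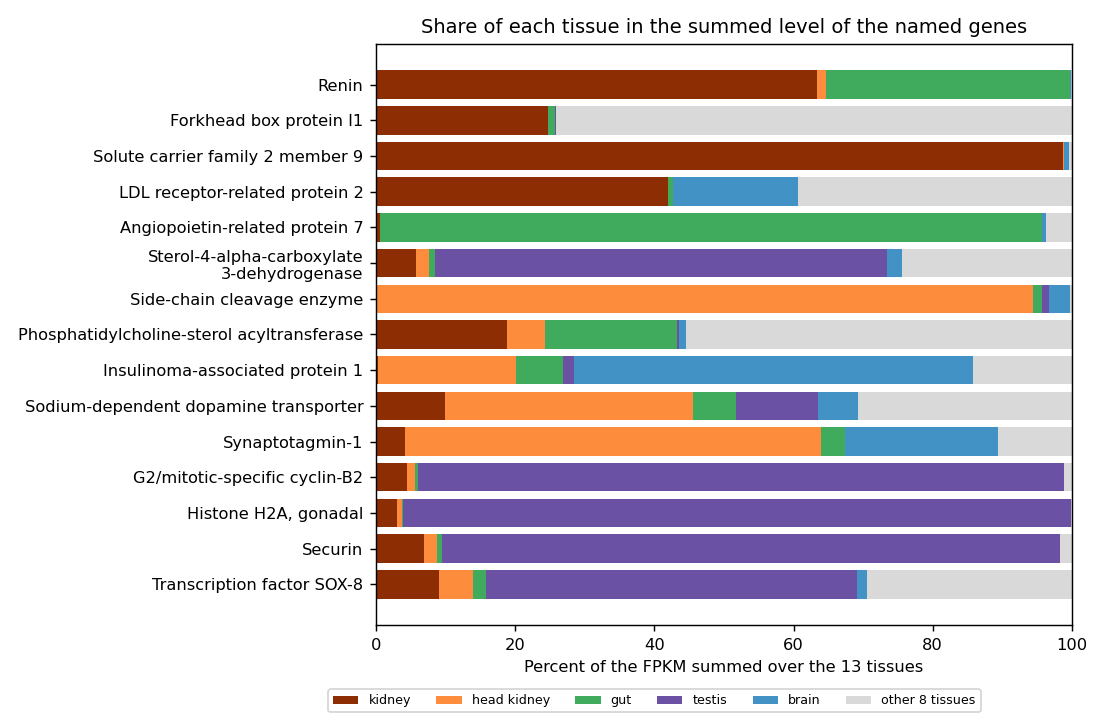
Percent of the FPKM summed over the 13 tissues that fell in kidney, head kidney, gut, testis, brain and the other 8 tissues, for renin, side-chain cleavage enzyme and named genes of the nephron, gut, cholesterol, neuroendocrine and germ cell lists. Renin is split between kidney (63.4%) and gut (35.0%), whereas 94.4% of side-chain cleavage enzyme lies in head kidney.

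Neuroendocrine transcripts, a group that includes those of chromaffin cells, were higher in head kidney than in kidney, as was side-chain cleavage enzyme. Synaptotagmin-1, a calcium sensor of secretory vesicles, had 68 fragments in head kidney and 5 in kidney, a ratio of 14.3 (5.84 to 45.5). The transcript with this name was lower in brain (1.38 FPKM) than in head kidney (3.74 FPKM), and whether it comes from a paralog was not tested. Insulinoma-associated protein 1, a transcription factor of neuroendocrine cells, had 66 fragments in head kidney and 1 in kidney, a ratio of 69.5 (12.04 to 2784). The sodium-dependent dopamine transporter, which takes dopamine back into cells, had 41 fragments in head kidney and 12 in kidney, a ratio of 3.60 (1.85 to 7.52). All 3 had intervals above 1, as had 33.4% of the 20904 transcripts compared. The interval of insulinoma-associated protein 1 overlapped that of the enzyme, and both rest on 1 fragment in kidney.

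Outside the kidneys the neuroendocrine transcripts were read both in tissues with side-chain cleavage enzyme and in tissues without it. Insulinoma-associated protein 1 was highest in brain, with 176 fragments, and had 30 in gill, 23 in gut, 14 in eye and 5 in testis. The dopamine transporter had 32 fragments in gill, 14 in testis, 7 in gut and 6 in brain. Gill and eye had no fragment of the enzyme. Synaptotagmin-1 had 23 fragments in brain, 4 in gut and none in testis. Immunoglobulin lambda-like polypeptide 1, of the blood-forming list, had 55 fragments in head kidney, 15 in kidney, 65 in spleen and 31 in gill. Of the other 4 transcripts matched to that list, 2 had 5 fragments each and were highest in head kidney, 1 of them named Elastase-1. The other 2 carried the same name, which is also that of a digestive protease, and were highest in gut and stomach. The list was therefore not summed. Side-chain cleavage enzyme had 1 fragment in spleen, and head kidney stood 1251-fold above it (224 to 49440).

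Other hormone genes that were matched had few fragments in both kidneys, some of them on short transcripts. Stanniocalcin-1, a hormone of calcium balance in fish, had 7 fragments, all in kidney. Its transcript had 204 bases, so that these gave 1.74 FPKM. Pro-opiomelanocortin, the precursor of the hormone that drives interrenal steroid synthesis, had 4 fragments in brain, 1 in gut and none in the other libraries. Its transcript had 222 bases, and the level in brain was 1.045 FPKM. Melanocortin receptor 5 had 108 fragments in brain and 1 in head kidney, and glycoprotein hormone beta-5, highest in nose with 1338, had none in kidney or head kidney. An Arg8-vasotocin receptor transcript of 386 bases was highest in testis, with 46 fragments there, 15 in eye, 1 in head kidney and none in kidney. Another with this name, of 212 bases, had 2 fragments in heart and 2 in testis. Of the 13 entries for hormones and their receptors, 6 were matched, to 7 transcripts, and only 2 of these had at least 100 fragments.

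The transcripts most like renin and the enzyme over the 13 tissues were sought by Pearson's r of log2(FPKM + 1) among 460 named transcripts with at least 100 fragments. The 13 points come from 1 fish and 1 library each, and r is given as a description. For renin the highest values were 0.90 for DEP domain-containing mTOR-interacting protein, an inhibitor of the mTOR kinase, and 0.78 for alveolar macrophage chemotactic factor 2. DEP domain-containing mTOR-interacting protein had 9.39 FPKM in kidney and 11.961 FPKM in gut, with 117 fragments in liver, and so shared the pair of tissues but not their order. Alcohol dehydrogenase A (0.78), P2Y purinoceptor 4 (0.76) and ectonucleoside triphosphate diphosphohydrolase 8 (0.76) followed. P2Y purinoceptor 4 had 8.62 FPKM in kidney but 0.179 FPKM in gut. The diphosphohydrolase had 7.83 FPKM in gut but 0.793 FPKM in kidney, so that each was high in only 1 of the pair. Alcohol dehydrogenase A, which oxidizes alcohols, had 21.2 FPKM in kidney, 11.2 FPKM in liver and 6.43 FPKM in gut.

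For side-chain cleavage enzyme the most similar was the transcript named synaptotagmin-1, with r = 0.93, 3.74 FPKM in head kidney and 1.38 FPKM in brain. Matrix metalloproteinase-19 (0.79), Toll-like receptor 7 (0.77), protein U88 (0.71) and potassium channel KQT member 5 (0.71) were next. Toll-like receptor 7, a sensor of viral RNA, had 275 fragments in head kidney, 107 in heart and 85 in spleen. KQT member 5 had 13.4 FPKM in head kidney, 4.61 in kidney, 4.52 in brain and 3.79 in spleen. It thus lacked the wide gap between the kidneys seen for the enzyme. Over all 24211 other transcripts with at least 100 fragments, named or not, r was at least 0.9 for 43 with renin and for 9 with side-chain cleavage enzyme.

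**Figure D5:**
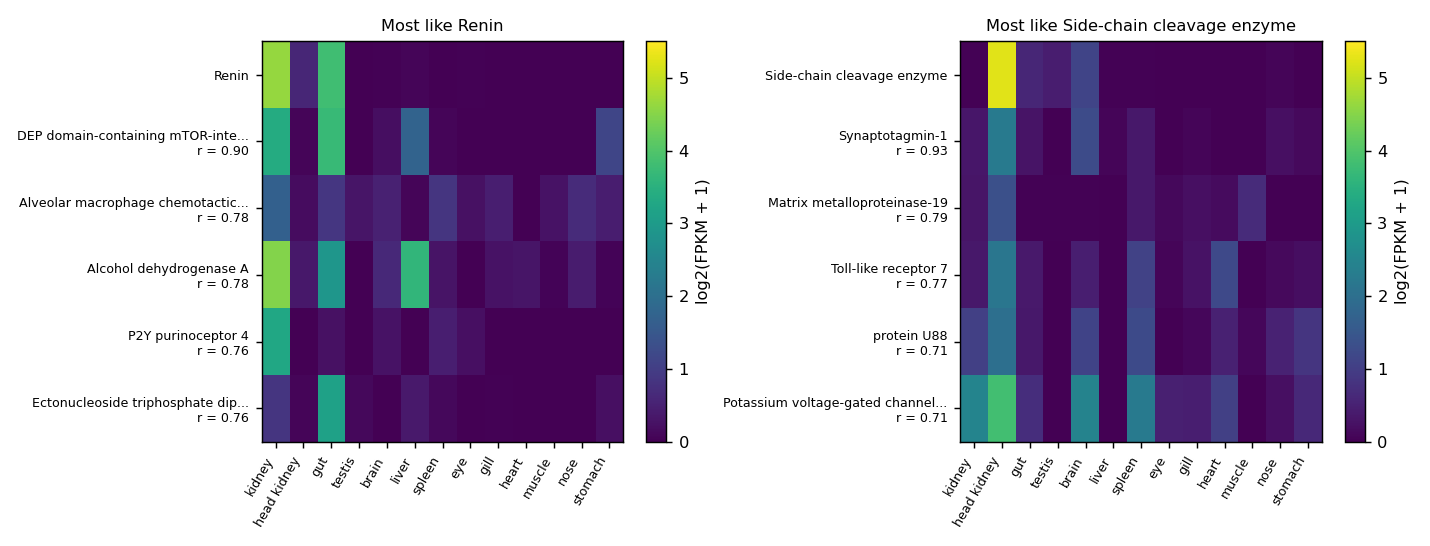
Level as log2(FPKM + 1) in the 13 tissues (columns) of renin and the 5 named transcripts most like it (left), and of side-chain cleavage enzyme and the 5 most like it (right), with Pearson's r over the 13 tissues. Renin and DEP domain-containing mTOR-interacting protein (r = 0.90) are both high in kidney and gut, and the enzyme and synaptotagmin-1 (r = 0.93) in head kidney and, at a lower level, brain.

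The order of tissues could be read only where fragments were many. For renin kidney stood above gut, gut above head kidney and head kidney above liver (10.7-fold, 2.56 to 95.002), while liver, brain and eye, with 1 or 2 fragments each, did not differ beyond counting error. The step from kidney to gut was the smallest of these, at 1.81-fold, and it depended on the scaling of the libraries. It was 1.45-fold when the 100 most abundant transcripts were left out of the totals. For side-chain cleavage enzyme head kidney, brain and gut stood in that order, and gut and testis were not separated. Testis stood 5.99-fold above nose (1.36 to 54.7), and nose, spleen, kidney and liver were not separated. In both genes the tissues with no fragment could not be ordered.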

How the data were processed

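The deposited values are the count of fragments mapped to each transcript in each tissue and the FPKM that the authors calculated from it. Paired-end reads had been trimmed with Trimmomatic by the authors, who assembled the reads of all tissues with Trinity, kept a non-redundant set and mapped each library back to it. The program that mapped and counted them was not given in the sources used here. Genome coordinates were not used here, and no sequences are printed.

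Names came from the annotation of the study. It was at hand as a shortened copy, and of its 1999 rows 1920 matched 1 transcript by fragments and FPKM in all 13 libraries, and 817 of these had a name. In a second shortened table, 113 of 1558 gene models were paired with 1 transcript by 13 fragment numbers within 1 fragment or 0.1%, lengths within 20% and at least 100 fragments. The pair that names renin was equal in 13 libraries. The tables shared 5 transcripts, so that 925 were named in all, and 27 of 57 entries in 8 lists of pathway and marker genes were matched. Names rest on similarity to proteins of other species, and paralogs may be confused.

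The 2 genes, the lists and the rules were chosen with earlier results of these data known. Named genes were these 2, list entries matched to 1 transcript with at least 100 fragments, and the 5 named transcripts most like each gene. Solute carrier family 2 member 9 and low-density lipoprotein receptor-related protein 2 were each matched to 3 transcripts and are described, except in the summed level of the list, by the one with the most fragments, and list entries below 100 fragments were described where a result touched them, both chosen after values were seen.

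Ratios are of fragments per library total, with exact conditional intervals at 95%, and fragments with exact Poisson intervals. Reads carry no molecular identifiers. A library with no fragment was set to a floor of 3 fragments, and in counts over all transcripts so was one below 3. The SD score used n - 1. Alternatives were TPM, thinning to the smallest library, totals without the 100 most abundant transcripts, other SD and log scales, other minimums, another likeness measure and a looser pairing. The 10-fold counts of head kidney over kidney and the coverage of the ratio interval were tested on simulated data, and the other calculations were not. The differences were planted in transcripts with more fragments than renin or the enzyme. Ratios that rest on a single fragment or on none were not simulated. Calculations ran in Python 3.11.15 with scipy 1.17.1, numpy 2.4.6 and pandas 2.3.3, and plots in matplotlib 3.10.9.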

Additional observations from a re-analysis of the deposited data

How the results depend on the processing

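Of 68 values recalculated under the alternatives, 54 were taken as unchanged, as they stayed on the same side of the SD limit, within counting error or, for counts, within 1.5 times, and none changed direction. Part of this tally was fixed in advance and is no measure of robustness. A 10-fold excess over a floor of 3 fragments already passes the minimum of 10 fragments, so counts without that minimum could not change. Leaving out a tissue with few or no fragments could hardly move an SD score across the limit. With totals without the 100 most abundant transcripts per library, kidney held 58.3% of the summed level of renin and the ratio of kidney to gut was 1.45. The same totals moved all ratios of head kidney to testis by 0.46 and of head kidney to brain by 0.13 on the log2 scale. The SD score of renin in kidney passed 3 with n in the SD (3.0003) and without gut (3.17), and that of side-chain cleavage enzyme in head kidney fell to 2.90 on log2(FPKM + 0.1). Of the 5 transcripts most like renin, 2 remained with Spearman's rho and 3 with a minimum of 10 fragments. Of the 5 most like the enzyme, 1 remained with log2(FPKM + 0.1), 1 with Spearman's rho and 3 with a minimum of 10 fragments. Transcripts at least 10-fold higher in head kidney than in kidney numbered 209, against 96 with at least 100 fragments and 478 with a floor of 1 fragment, and those higher than in testis 3111, against 2037 and 4677. The cause of the changes in likeness was not tested. No paired analysis was possible because each tissue had 1 library. Values of 1 to 3 fragments limit the ratios that rest on them.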
